A study of Mus musculus with 6 samples.

Results

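The genes followed in Neuro2a cells make neurotransmitters, load them into vesicles or break them down: Th, Ddc, Dbh, Slc18a2, Chat, Slc18a3, Ache, Gad1, Slc17a6 and Gch1. They were chosen by symbol, and all 10 were found among the 24391 genes of the deposited count table. Neuro2a is a mouse neuroblastoma line, and its RNA was sequenced after selection of poly(A) transcripts. Both groups were moved from D-MEM with fetal bovine serum to a serum-containing medium that the labels write as D-MEM(-SG), without saying what SG stands for. The cells of the 3 control libraries received vehicle and those of the 3 D-serine libraries 5 mM D-serine, and RNA was taken after 18 h. All libraries come from 1 cell line. The labels number the replicates but do not say that they were separate cultures, so the p-values measure the spread between these libraries, which may be technical. The study asked how D-serine changes gene expression in these cells.

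A neuron's transmitter is set by the enzymes that make it and the carrier that packs it into vesicles. Tyrosine hydroxylase (Th) makes L-DOPA from tyrosine, aromatic amino acid decarboxylase (Ddc) turns it into dopamine, and dopamine beta-hydroxylase (Dbh) turns dopamine into noradrenaline. GTP cyclohydrolase (Gch1) starts the synthesis of tetrahydrobiopterin, a cofactor that tyrosine and tryptophan hydroxylases need, and VMAT2 (Slc18a2) pumps monoamines into vesicles. Choline acetyltransferase (Chat) makes acetylcholine, VAChT (Slc18a3) loads it and acetylcholinesterase (Ache) destroys it after release. Glutamate decarboxylase (Gad1) makes GABA, and VGLUT2 (Slc17a6) loads glutamate. Neuroblastoma arises from the sympathoadrenal lineage, whose mature cells are mostly noradrenergic and in part cholinergic.

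The starts of 3 genes of monoamine synthesis and storage are shown because the genes carry related sequence elements there and stand at very different levels in these cells. The sequences are from RefSeq (GRCm38.p6), 5′ to 3′ on the gene's strand, and positions count from the start site, with -1 as the base before it. In Th and Slc18a2 the capitals mark TGACGTCA, the palindromic cyclic AMP response element. In Gch1 they mark its shorter core TGACG and a CCAAT box.
Th: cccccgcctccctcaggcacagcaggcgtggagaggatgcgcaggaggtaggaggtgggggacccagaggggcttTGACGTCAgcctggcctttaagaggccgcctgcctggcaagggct
Slc18a2: cgccccctctcagcgctgtccgTGACGTCA
Gch1: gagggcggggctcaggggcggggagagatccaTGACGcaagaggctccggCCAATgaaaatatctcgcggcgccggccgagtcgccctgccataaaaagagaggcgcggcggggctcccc
The Th stretch is chr7:142899996-142900115 on the minus strand (positions -120 to -1), and its element lies at -45 to -38. The Slc18a2 stretch is chr19:59260852-59260881 on the plus strand (positions -26 to 4), and its element spans the start site, from -4 to 4. The Gch1 stretch is chr14:47189414-47189533 on the minus strand (positions -120 to -1), with TGACG at -88 to -84 and CCAAT at -70 to -66. Read on both strands in windows of 250 bases before to 50 bases after each start, TGACGTCA occurred in 1.79% of 32851 RefSeq windows and in 2 of the 12 windows of the genes described, those of Th and Slc18a2. TGACG, which TGACGTCA contains, occurred in 20.8% of all windows and in 7 of the 12, and CCAAT in 37.4% and in 4 of the 12. The pair marked in Gch1 is not particular to it, since Dbh and Chat also held both TGACG and CCAAT. A match is a description of the letters and shows no binding.

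The libraries held between 32518483 and 40024265 counts. Within a group, counts of library pairs differed by a chi-square statistic per degree of freedom of 3.88 to 6.54 in control, and by 4.07 between D-serine replicates 2 and 3, where 1 is sampling noise. D-serine replicate 1 stood apart, at 17.7 and 13.9 against its fellows, so calls that change without it are given. Of 10 sympathoadrenal and neuronal markers, 9 had at least 1 RPKM in control, where RPKM is the count scaled to library size and divided by kilobases of exon. They included the lineage factor Hand2 (108 ± 2.34 RPKM) and the neuronal tubulin-binding protein gene Stmn2 (80.7 ± 2.75 RPKM, SD, n = 3). The summed level of the 10 was 427 to 438 RPKM in control and 438 to 458 RPKM with D-serine. Summed levels in control and D-serine were 0.414 to 0.578 and 0.602 to 0.881 RPKM for 6 glial markers, 1.05 to 1.12 and 0.985 to 1.39 RPKM for 6 fibroblast markers, 1.12 to 1.28 and 1.04 to 1.35 RPKM for 4 endothelial markers, and 0.487 to 1.31 and 0.736 to 1.04 RPKM for 4 leukocyte markers. Defining glial Sox10 was at 0 counts in all but 1 library, and glial Foxd3 and fibroblast Col3a1 in all 6. No marker of any list passed the test between groups, which 9.74% of all tested genes passed. Only 1 of 6 glial, 2 of 6 fibroblast, 2 of 4 endothelial and 2 of 4 leukocyte markers had enough counts to be tested. The part of such cells in the results was not tested.

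In control Neuro2a cells the transcript of Gch1, which starts synthesis of the cofactor, stood high, and that of the vesicle pump gene Slc18a2 at a middle level. Transcripts of the catecholamine enzymes lay near the bottom of the expressed range. Almost no transcript was found for making acetylcholine or GABA or for loading glutamate through VGLUT2. The cofactor, the proteins and the transmitters themselves were not measured. Per length, the order was Gch1, Slc18a2, Ache, Th, Dbh and Ddc, followed by Chat and Gad1 with a single count each in the 3 control libraries, and by Slc18a3 and Slc17a6 with no count. Gch1 was 4.95 times as abundant as Slc18a2 (4.78 to 5.04 over the 3 libraries), and Slc18a2 was 1.76 times as abundant as Ache (1.71 to 1.83). The largest step among the 6 clearly detected genes lay below Ache, which stood 14.6 ± 3.82 times above Th (SD, n = 3). Th and Dbh had overlapping ranges in control, and so did all 4 genes at the bottom. Dbh stood 1.51 times above Ddc (1.22 to 1.78), without overlap. These levels rest on the deposited exon lengths, which may include exons that Neuro2a does not use.

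**Figure D1:**
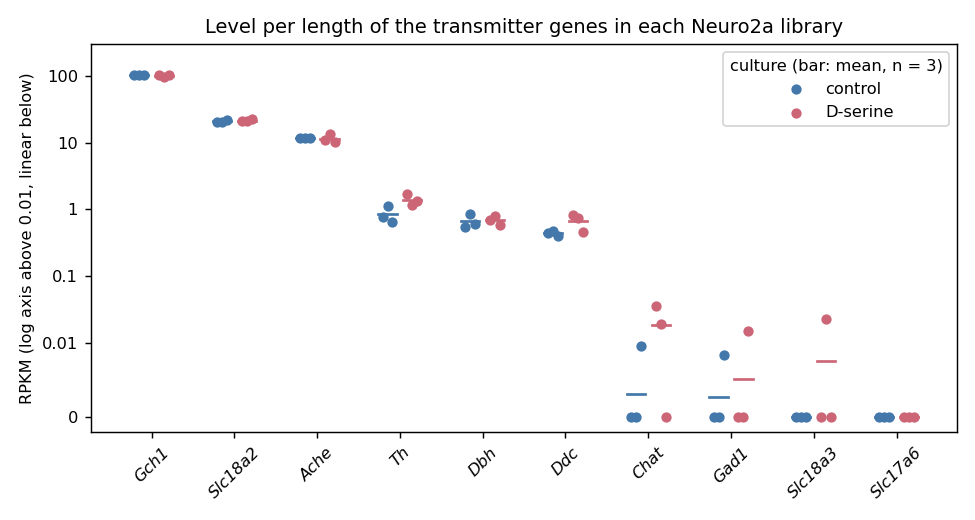
RPKM of the 10 genes in each library, ordered by the control mean, with control in blue and D-serine in red; points are replicates 1 to 3 and bars are means (n = 3 each), on an axis that is logarithmic above 0.01 and linear below. Gch1, Slc18a2 and Ache lie above 10 RPKM, Th, Dbh and Ddc near 1 RPKM or below, and the other 4 genes at 0 to 4 counts per library.

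Th (chromosome 7, 150078681 to 150085871, minus strand) had 43, 74 and 43 counts in control replicates 1 to 3, which is 0.758, 1.13 and 0.657 RPKM. With D-serine it had 116, 75 and 93 counts, or 1.68, 1.16 and 1.31 RPKM. The highest control library and the lowest D-serine library nearly met, at 1.99 and 2.04 CPM (the count scaled to library size), and the groups did not overlap. In control, 15.4% of the 13366 tested genes had a lower level per length than Th. Counting error alone is 15.2% of a value at 43 counts, so each single library fixes Th only loosely.

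Ddc (chromosome 11, 11714104 to 11798147, minus strand) had 30, 37 and 31 counts in control and 67, 58 and 38 with D-serine. D-serine replicates 1 and 2 were above every control library, and D-serine replicate 3 (0.943 CPM) lay within the control range of 0.833 to 0.998 CPM. Dbh (chromosome 2, 27021027 to 27038724, plus strand) had 40, 72 and 52 counts in control and 62, 68 and 54 with D-serine, and its groups overlapped fully. Control replicate 2 was the highest control library for Th, Ddc and Dbh alike. Pnmt, whose enzyme makes adrenaline from noradrenaline, had no count in any library.

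Slc18a2 (chromosome 19, 59335368 to 59370502, plus strand) stood well above Th, Ddc and Dbh in level per length. Its values were 20.4, 20.4 and 21.7 RPKM in control replicates 1 to 3 and 20.8, 20.9 and 22.4 RPKM with D-serine, and the groups overlapped. In each control library its level was 18.0 to 33.0 times that of Th (25.9 ± 7.54, SD, n = 3). Slc18a1, which encodes VMAT1, the related pump of chromaffin cells, had 1.92 ± 0.18 RPKM in control. The level of Slc18a2 was 10.9 ± 1.40 times that of Slc18a1. The plasma membrane carriers of noradrenaline (Slc6a2) and dopamine (Slc6a3) and both monoamine oxidases (Maoa, Maob) had no count in any library. In control, 69.4% of tested genes were below Slc18a2 in level per length.

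Gch1 (chromosome 14, 47773570 to 47809077, minus strand) was the most abundant of the 10 genes, with 9179, 10479 and 10659 counts in control and 11039, 9823 and 11377 with D-serine. Its control level was 103 ± 0.70 RPKM (SD, n = 3), above that of 95% of the tested genes and 128 ± 34.5 times that of Th. The next enzymes of the cofactor's synthesis were lower per length: Pts at 2.74 ± 0.72 RPKM and Spr at 19.4 ± 0.99 RPKM. The recycling enzyme Qdpr stood at 40.2 ± 2.74 RPKM. All 8 genes of this cofactor list had at least 1 RPKM in control, against 3 of 11 genes of the catecholamine list.

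The cholinergic genes were split between the breakdown enzyme and the rest. Ache (chromosome 5, 137729482 to 137735694, plus strand) had 832, 979 and 977 counts in control and 960, 1077 and 906 with D-serine, which is 11.7, 11.9 and 11.9 RPKM against 11.1, 13.2 and 10.2 RPKM. The control libraries lay close together and within the wider D-serine range. Prima1, which encodes the membrane anchor of acetylcholinesterase, stood at 22.9 ± 2.25 RPKM in control, and butyrylcholinesterase (Bche) had no count. Chat (chromosome 14, 33221389 to 33279095, minus strand) had 0, 0 and 1 counts in control and 4, 2 and 0 with D-serine. Slc18a3 (chromosome 14, 33275623 to 33278036, minus strand) lies within the span of Chat and shares 0 exonic bases with it. It had 0 counts in each control library and 0, 2 and 0 with D-serine. The high-affinity choline carrier Slc5a7 had no count in any library.

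Gad1 (chromosome 2, 70400221 to 70440069, plus strand) had 0, 0 and 1 counts in control and 0, 0 and 2 with D-serine. Its relative Gad2 had 0, 2 and 0 counts in control and 4, 7 and 4 with D-serine, and the vesicular GABA carrier Slc32a1 had 4, 7 and 10 in control and 9, 1 and 6 with D-serine. The breakdown enzyme Abat, by contrast, stood at 22.8 ± 0.55 RPKM in control (SD, n = 3). Slc17a6 (chromosome 7, 58877200 to 58926496, plus strand) had no count in any of the 6 libraries. A count of 0 allows up to 3 counts, which for Slc17a6 is 0.0187 to 0.0215 RPKM per control library, counting error only. Of its relatives, Slc17a7 (VGLUT1) had 29, 16 and 24 counts and Slc17a8 (VGLUT3) 2, 2 and 0 in control. Glul, whose enzyme makes glutamine from glutamate, was abundant, at 54.5 ± 1.43 RPKM.

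Serotonin synthesis provides a comparison within the monoamines, since tryptophan hydroxylase uses the same cofactor and serotonin is loaded by the same vesicle pump. Tph2, the neuronal form, stood at 3.76 ± 0.32 RPKM in control and Tph1 at 0.983 ± 0.113 RPKM (SD, n = 3). The level of Tph2 was 4.67 ± 1.28 times that of Th, between 3.19 and 5.45 times in the 3 libraries. The serotonin carrier Slc6a4 had 0, 1 and 3 counts in control, and 16 counts in all with D-serine. Its groups did not overlap in CPM, as was found for 32.9% of all tested genes, but it was too low to be tested. Of 14 genes of peptide cargo and processing, 10 had at least 1 RPKM in control, and the highest were Vgf (281 ± 9.11 RPKM), Chgb (100.1 ± 4.0 RPKM) and Scg2 (94.5 ± 4.64 RPKM).

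**Figure D2:**
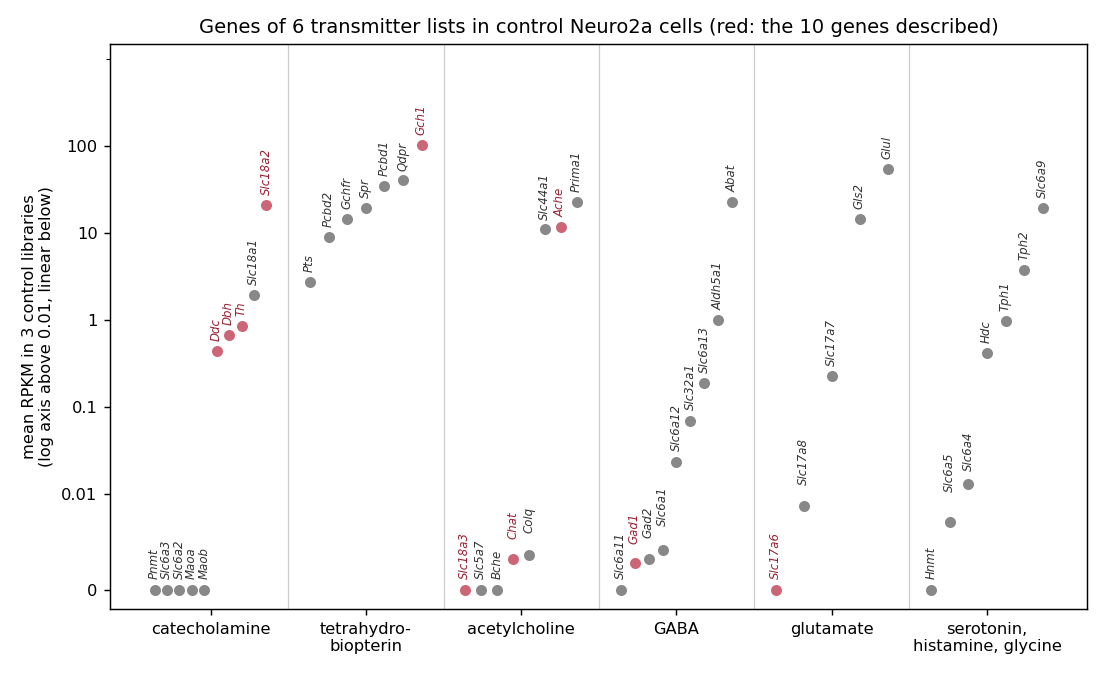
Mean RPKM in the 3 control libraries of genes of 6 transmitter lists, 1 point per gene, with the genes described in red and the axis logarithmic above 0.01 and linear below. The cofactor genes shown lie above 1 RPKM, with Gch1 at the top, while Chat, Slc18a3, Gad1 and Slc17a6 lie at or near 0.

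With D-serine, 0 of the 10 genes passed the test. The test was edgeR's quasi-likelihood F test over the 13366 genes with enough counts, at a Benjamini-Hochberg adjusted p under 0.05, and 9.74% of those genes passed it. Of those tested, 4.84% were higher (647 genes) and 4.9% lower (655 genes), or 914 and 412 genes with upper quartile scaling. The count filter kept 6 of the 10 genes, and Chat, Slc18a3, Gad1 and Slc17a6 were too low to enter. At an unadjusted p under 0.05 there was 1 of the 6, Th, against 28.2% of all tested genes, and DESeq2 and limma-voom also called 0. The median log2 fold change of the 6 was 0.05, against 0.01 over all tested genes, and the median of its absolute size was 0.05 against 0.12. Separate ranges in the groups were found for 2 of the 6, Th and Gch1, against 32.9% of all tested genes.

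Th had the largest difference of the 6. Its mean over the control libraries was 1.49 ± 0.44 CPM, and over the D-serine libraries 2.44 ± 0.47 CPM (SD, n = 3 each). This is a log2 fold change of 0.70 (SE 0.25, 95% interval 0.16 to 1.24, not adjusted for the number of genes), with an edgeR adjusted p of 0.0899. Without a filter on low counts the same fit gave an adjusted p of 0.0397, over 17635 genes of which 10.6% passed, and over all 16 alternatives it ranged from 0.0397 to 0.238. Without D-serine replicate 1, the highest library, the log2 fold change was 0.54 with an adjusted p of 0.207. Ddc had a log2 fold change of 0.61 (SE 0.30, adjusted p = 0.197), and its interval of -0.03 to 1.25 includes both no change and more than a doubling. In bulk RNA, more cells with a transcript and more transcript per cell cannot be told apart.

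Dbh, the enzyme after Ddc, had a log2 fold change of 0.05 (SE 0.26, interval -0.50 to 0.61, adjusted p = 0.923), and its sign changed when control replicate 1 (-0.07), control replicate 3 (-0.01) or D-serine replicate 2 (-0.07) was left out. The abundant genes were measured more tightly. Slc18a2 had a log2 fold change of 0.04 (SE 0.05, interval -0.07 to 0.15, edgeR adjusted p = 0.658). Gch1 had -0.04 (SE 0.04, interval -0.13 to 0.05, adjusted p = 0.577), so that a change beyond -8.40% or 3.53% lies outside its interval. Its lack of overlap rests on 282.5 CPM in the lowest control library and 282.4 CPM in the highest D-serine library. Ache had -0.04 (SE 0.09, interval -0.23 to 0.14, adjusted p = 0.793), and without D-serine replicate 3 it was 0.04.

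For the 4 genes below the filter, an exact two-sided permutation test of CPM gave p = 0.4 for Chat and p = 1 for Slc18a3, Gad1 and Slc17a6, and a design of 3 against 3 cannot go below 0.1. At 0 to 4 counts per library, no difference was detectable in these genes.

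**Figure D3:**
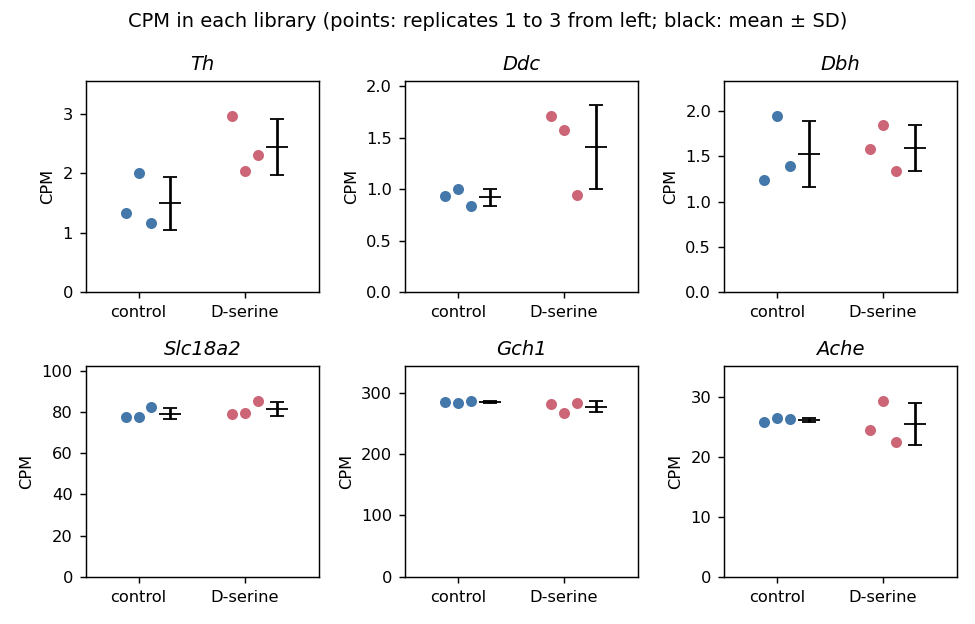
CPM of the 6 tested genes in each library, replicates 1 to 3 from left in each group, with the mean ± SD in black and every axis starting at 0. D-serine libraries lie above the control libraries for Th, and the groups lie at nearly the same height for Slc18a2, Gch1 and Ache.

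Of 88 other genes written down for these transmitter systems, 46 were tested and 4 passed, which is 8.7% against 9.74% of all tested genes. Their median log2 fold change was 0.02. Of the 4, 3 rose, which were Tph1, Tph2 and Scg2, and 1 fell. No gene passed of the lists on catecholamines (6 tested), the cofactor (8), acetylcholine (3), GABA (3), other vesicle carriers (5) or metabotropic receptors (7). These numbers include those of the 10 genes that belong to a list. With so few tested, the absence of a call does not show that a list was unchanged. Of the 7 genes on serotonin, histamine and glycine, 2 of the 4 tested rose, and they were both tryptophan hydroxylases. Among the 14 genes of peptide cargo and processing, 1 of the 12 tested rose.

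Tph2 (chromosome 10, 114515697 to 114622078, minus strand) had 350, 353 and 346 counts in control replicates 1 to 3 and 504, 450 and 565 with D-serine. It rose by a log2 fold change of 0.40 (SE 0.10, edgeR adjusted p = 0.0230), from a mean of 9.89 ± 0.84 CPM to one of 13.0 ± 0.91 CPM (SD, n = 3 each). Tph1 (chromosome 7, 53900011 to 53927907, minus strand) had 138, 196 and 166 counts in control and 220, 308 and 267 with D-serine, and rose by a log2 fold change of 0.55 (SE 0.16, adjusted p = 0.0431), from 4.67 ± 0.54 CPM on average to 6.87 ± 1.40 CPM. For both genes every D-serine library was above every control library, where groups without overlap, in either direction, were found for 32.9% of all tested genes. The level of Tph2 remained above that of Tph1, at 3.88 ± 0.67 times in control and 3.54 ± 0.79 times with D-serine.

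Scg2 (chromosome 1, 79431244 to 79436665, minus strand), which encodes secretogranin II, a protein of dense-core vesicles, had the smallest adjusted p of the 4 (0.0142, edgeR) and rose by a log2 fold change of 0.23 (SE 0.05), from 235 ± 11.5 CPM to 275 ± 7.57 CPM on average. Its control libraries lay between 223 and 247 CPM and its D-serine libraries between 270.1 and 284 CPM. The vesicle proteins Chga and Chgb had log2 fold changes of -0.01 and 0.01 and did not pass. Prima1, of the acetylcholine list, missed the threshold, at a log2 fold change of 0.28 (SE 0.08, adjusted p = 0.0568). It passed in 5 of 16 alternatives, among them DESeq2 (adjusted p = 0.0333), and its adjusted p ranged from 0.00918 to 0.201.

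These 4 calls depended on which libraries were included, as did the number of calls over all genes. With all libraries, 46 of the 88 were tested, and 1302 of all tested genes passed. On omission of control replicate 1 or control replicate 2, edgeR called 0 of the 88 (6 and 9 had an unadjusted p under 0.05). The calls over all genes then fell to 125 and 68. On omission of control replicate 3 or D-serine replicate 3 it called 1 of the 88, against 453 and 291 over all genes. When D-serine replicate 1 was left out, edgeR called 7 of the 88 and 1699 over all genes. The 3 genes added in the last case were Prima1 (log2 fold change 0.34, adjusted p = 0.00918), the glycine carrier Slc6a9 (-0.21, adjusted p = 0.0103) and the muscarinic receptor gene Chrm4 (-0.25, adjusted p = 0.00819). With all libraries the adjusted p of Slc6a9 was 0.0744 and that of Chrm4 0.0793, and over the alternatives they ranged from 0.0103 to 0.245 and from 0.00819 to 0.269. Over all alternatives the adjusted p ranged from 0.00546 to 0.0983 for Tph2, from 0.00533 to 0.143 for Tph1 and from 0.000692 to 0.0744 for Scg2, with the same direction in all 16 for each.

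**Figure D4:**
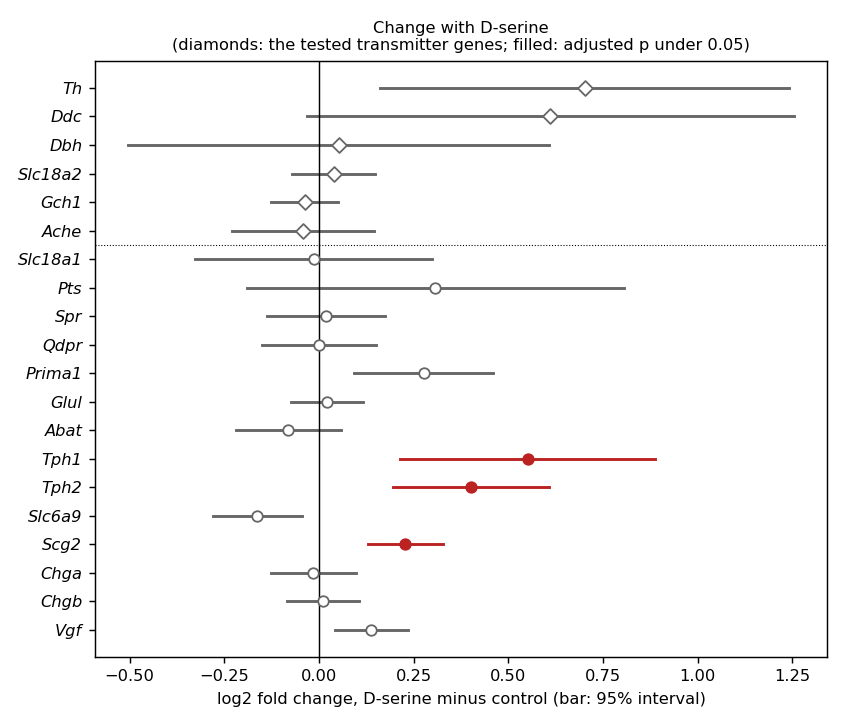
Log2 fold change between D-serine and control, with its 95% interval, for the 6 tested genes (diamonds, above the dotted line) and 14 genes of the same transmitter systems (circles). Filled red symbols have an adjusted p under 0.05; they are Tph1, Tph2 and Scg2, all to the right of 0.

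Likeness of pattern was measured as the root mean square difference of mean-centred log2 CPM over the 6 libraries, for the 3 genes with a mean of at least 5 CPM and among 9842 other genes. Among the nearest genes to Gch1 was Wbscr16 (0.0099), where the deviation of Gch1 from its own mean was 0.0328. Those nearest to Slc18a2 were Mettl1 (0.0143) and Irak1 (0.0176), against its own deviation of 0.0492. Those nearest to Ache were Zbtb7c (0.0339) and Tyk2 (0.0463), against 0.116. With so many candidates and 6 libraries, close matches are found for any gene whose level hardly varies.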

How the data were processed

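The authors deposited raw counts, as 1 table with the columns of featureCounts, per the file headers. The submitters' processing notes list bcl2fastq, Trim Galore, HISAT2, featureCounts, Subread and DESeq2, without versions, and the builds GRCm38 and mm10. The deposited coordinates are from another build: Th ends at 150085871 on chromosome 7, beyond the last gene of RefSeq GRCm38.p6 there (145324059), and 0 of the 10 genes had the same start. They are printed as deposited, 1-based, and RefSeq sequences carry RefSeq coordinates. The strand setting and the treatment of multiply mapped reads are not given in the sources used here. The deposited length equalled the merged exons for all 10 genes, and their exons shared no base with another gene of the table.

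Differences were tested with edgeR 4.0.16 in R 4.3.3 (filterByExpr, TMM scaling, no covariate), and adjusted p-values cover all genes tested, two-sided. SE is the log2 fold change divided by the square root of F. CPM and RPKM use TMM-scaled library sizes and, for RPKM, the deposited length. Alternatives were DESeq2 1.42.0, limma-voom (limma 3.58.1), other scalings, other filters, replicate number as a block, removal of a length trend (natural spline, 5 degrees of freedom) and leaving out each library. The fits were also run on simulated counts, in which every gene had the same spread beyond sampling noise and no library stood apart. These data differ in both, so that run does not show how the fits behave here, and no result above rests on it. Named were all 10 genes, each called gene of the pathway lists, the 3 genes of a list with the highest control level, and fixed partners of the 10; some are not reported here. The members and lists were chosen with earlier results of these data known.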

Additional observations from a re-analysis of the deposited data

How the results depend on the processing

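The count of the 10 genes past the threshold was 0 in edgeR and in 15 of 16 alternatives, and 1 without a filter on low counts (Th). Over all genes, 1302 passed; 298 passed with the replicate number as a block, 2043 with the length trend removed, and when a library was left out between 68 (control replicate 2) and 1699 (D-serine replicate 1). Of the 88 pathway genes, 4 passed, 0 with the block (11 at an unadjusted p under 0.05), 6 with the length trend removed, also together with the block (1900 over all genes), and 0 to 7 with a library left out. Same-numbered libraries did not deviate together (correlations of -0.0687, 0.0197 and -0.0187 over genes), so the numbers were not taken to pair them, and not every library correlated best with its own number. With a library left out, the log2 fold change of Dbh ran from -0.0715 to 0.265 (below 0 on omission of control replicate 1, control replicate 3 or D-serine replicate 2, at -0.0715, -0.0114 and -0.0683), and that of Ache from -0.155 to 0.0392 (positive without D-serine replicate 3). The causes were not tested. The order of the 10 levels in control kept all 10 ranks under other scalings and 7 with CPM in place of RPKM or without control replicate 3. The same alternatives for Tph1, Tph2, Scg2 and Prima1 were added after seeing the data. Depth limits Th, Ddc and Dbh, at 30 to 116 counts per library, and leaves the 4 lowest genes without a usable comparison.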

Other observations

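Transcripts of the metabotropic receptors of these transmitters were mostly low or absent in Neuro2a cells. Of 29 receptor genes, 11 were at 0 in every library, 15 had counts but less than 1 RPKM in control, and 3 had at least 1 RPKM in control. They included Chrm4, the M4 muscarinic acetylcholine receptor (17.4 ± 0.82 RPKM in control and 15.3 ± 1.15 with D-serine, SD, n = 3 each) and Gabbr1, a subunit of the GABA-B receptor (8.66 ± 0.50 and 7.80 ± 0.44 RPKM). None of the 7 tested passed in edgeR, against 9.74% of all tested genes, with an adjusted p of 0.0793 for Chrm4. Chrm4 passed without D-serine replicate 1 (log2 fold change -0.25, adjusted p = 0.00819), with the length trend removed (adjusted p = 0.0282) and with that removal and the replicate block (0.0183), and its adjusted p ranged from 0.00819 to 0.269 over the alternatives. Gabbr2, the partner that GABA-B receptors need, had no count in any library.

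Sv2c, which encodes a synaptic vesicle glycoprotein, stood at 74.5 CPM in D-serine replicate 1 and between 124 and 134 CPM in the other 5 libraries. It was chosen after its values were seen.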
